A study of Mus musculus with 10 samples.

Results

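Cells of melanoma tumours sorted as c-Myc-high were compared with cells sorted as c-Myc-low over primary and metastatic tumours together, across all genes. All 10 RNA libraries of the study entered the comparison, 5 of c-Myc-high and 5 of c-Myc-low cells, and the site of the tumour was a covariate. No measured value was used to choose the libraries. Skin tumours, the primary site, gave 2 libraries of each class, and lymph node metastases gave 3 of each, all from mice labelled C57BL/6:SV129. GFP-positive cells were the c-Myc-high and GFP-negative cells the c-Myc-low class. How GFP reports c-Myc, which alleles drive the tumours, the age of the mice and whether a library pools animals are not stated in the labels. Nor do the labels tie a replicate to its own animal. The p-values therefore measure only the spread between these libraries, which may be in part technical. The study's title names AMPK, c-Myc and oxidative stress.

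c-Myc is a transcription factor that binds DNA as a dimer with MAX, most often at the E-box CACGTG. It is best known for raising genes of ribosome production, translation, mitochondria and the cell cycle, and in melanoma it is a driver of growth. AMPK is a kinase that senses low cellular energy and restrains anabolic growth. Melanoma cells derive from melanocytes and commonly keep part of the pigment cell programme, which is set by MITF and SOX10.

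The c-Myc-high libraries were more uneven than the c-Myc-low ones. Totals ran from 1602573 to 6844152 counts per library. At an equal draw of 1500000 counts, 12999 to 16983 genes were detected in c-Myc-high and 16606 to 18784 in c-Myc-low libraries, a mean difference within sites of -3127 genes. An exact permutation test within sites, two-sided, gave p = 0.0167, the lowest value that its 120 arrangements allow. Log2 CPM, counts scaled to a common library total, of 2 libraries of the same group correlated across genes at 0.587 to 0.674 in c-Myc-high and 0.806 to 0.914 in c-Myc-low cells, over 4 pairs each. For 10046 genes (59.8%) the SD of log2 CPM was larger in c-Myc-high cells in both sites, and for 913 (5.43%) it was larger in c-Myc-low cells in both. Some libraries stood apart. Over a list of salivary gland genes, 2 metastatic libraries of the c-Myc-high class summed to 216000 CPM (replicate 1) and 62600 CPM (replicate 3), against 17.5 to 772 in the other 8. Lars2, a mitochondrial leucyl-tRNA synthetase gene, took 5.01% of counts in primary c-Myc-high replicate 2 and 4.85% in metastatic c-Myc-high replicate 3, against 0.0184% to 1.61% elsewhere. These 2 Lars2-rich libraries also had the lowest totals, 1602573 and 2641509 counts. Their TMM scaling factors, 0.671 and 0.742, were the lowest too, and a low factor raises CPM. The part of depth and scaling in their high values was not tested. Xist, transcribed from the inactive X chromosome, stood at 7.95 to 17.7 CPM in replicate 2 of the c-Myc-high class at both sites and in metastatic c-Myc-low replicate 3, and at 1710 to 5380 in the other 7. Kdm5d, a gene of the Y chromosome, stood at 24 to 27 CPM in those 3 libraries and at 0 to 0.269 in the other 7. Libraries of every group but primary c-Myc-low thus differed in sex, so the spread within these groups is not only technical. The metastatic 2 of those 3 libraries, of opposite classes, correlated at 0.918.

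**Figure D1:**
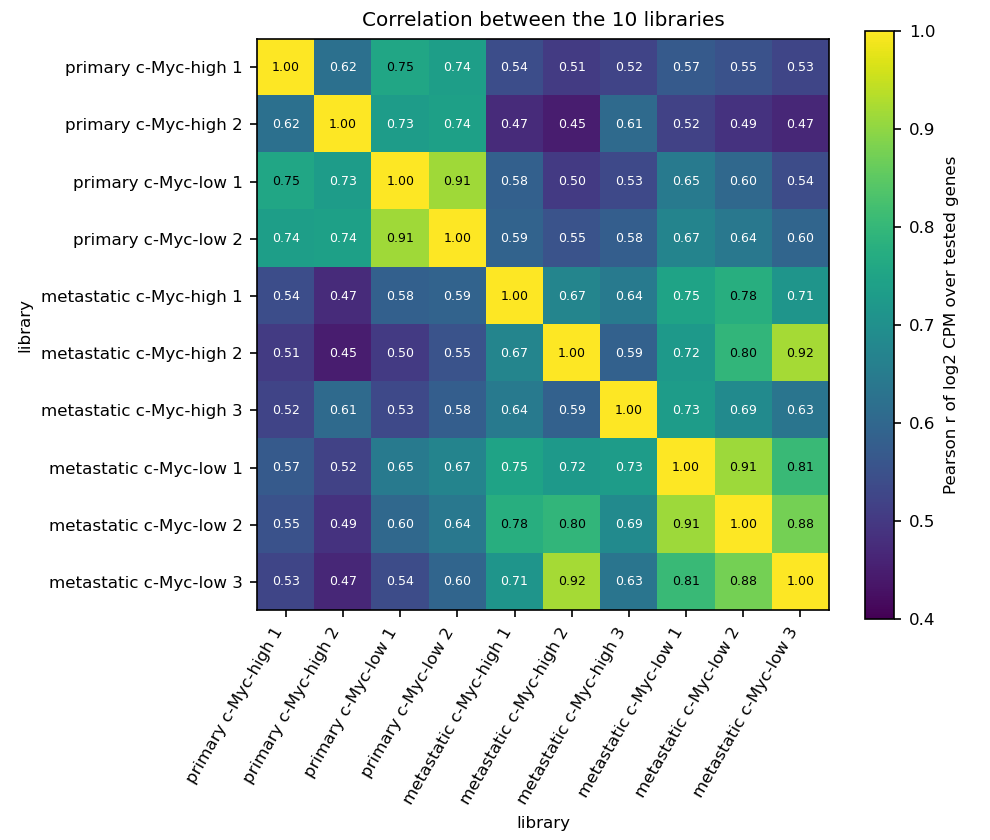
Pearson correlation of log2 CPM over the tested genes between each pair of the 10 libraries, with 1 row and column per library and colour from 0.4 to 1. Pairs of c-Myc-low libraries of the same site reach 0.806 to 0.914, pairs of c-Myc-high libraries 0.587 to 0.674.

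**Figure D2:**
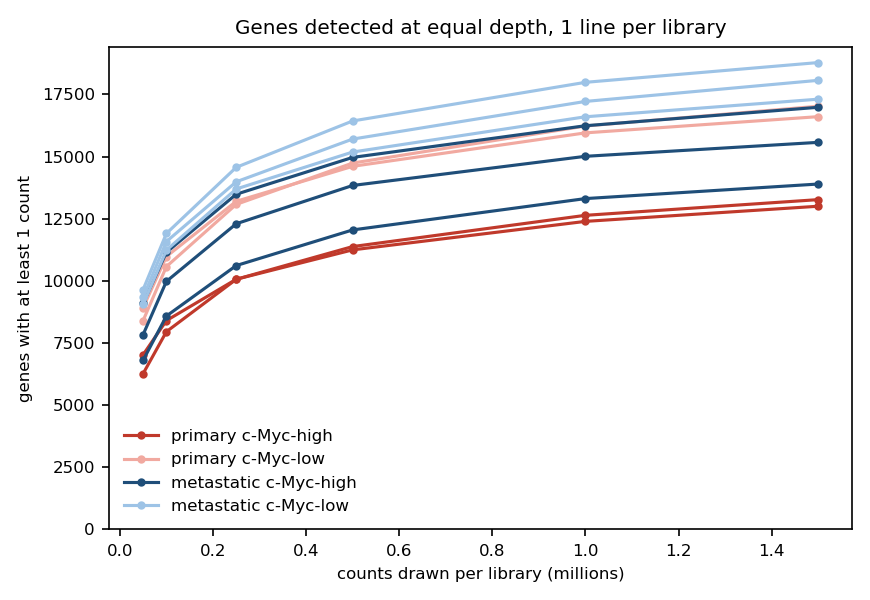
Genes with at least 1 count (y axis) against the number of counts drawn from a library (x axis), with 1 line per library coloured by group. At the right end the 3 metastatic c-Myc-low libraries lie between 17309 and 18784 genes and the 2 primary c-Myc-high libraries at 12999 and 13265.

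No gene passed between the classes. Of 16805 genes tested with edgeR's quasi-likelihood test, 0 (0.0%) had an adjusted p under 0.05, and the lowest adjusted p was 0.204. At an unadjusted p under 0.05, 794 genes (4.72%) had higher and 643 (3.83%) lower values in c-Myc-high cells. With RLE instead of TMM scaling, edgeR gave 993 and 518 such genes. DESeq2 called 236 genes higher (1.4%) and 45 lower (0.268%). Of those 236, 107 had their highest values in the Lars2-rich libraries and 45 in the libraries rich in salivary gland transcripts. Among the 794 genes these numbers were 355 and 90. Genes picked as higher in c-Myc-high cells tend to peak in c-Myc-high libraries. The matching share over all genes was not counted, so these numbers are description only. The median log2 fold change of all genes was -0.06, so values near it are the background for every gene below. Fold changes are c-Myc-high over c-Myc-low with site as covariate, and CPM are TMM-scaled.

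**Figure D3:**
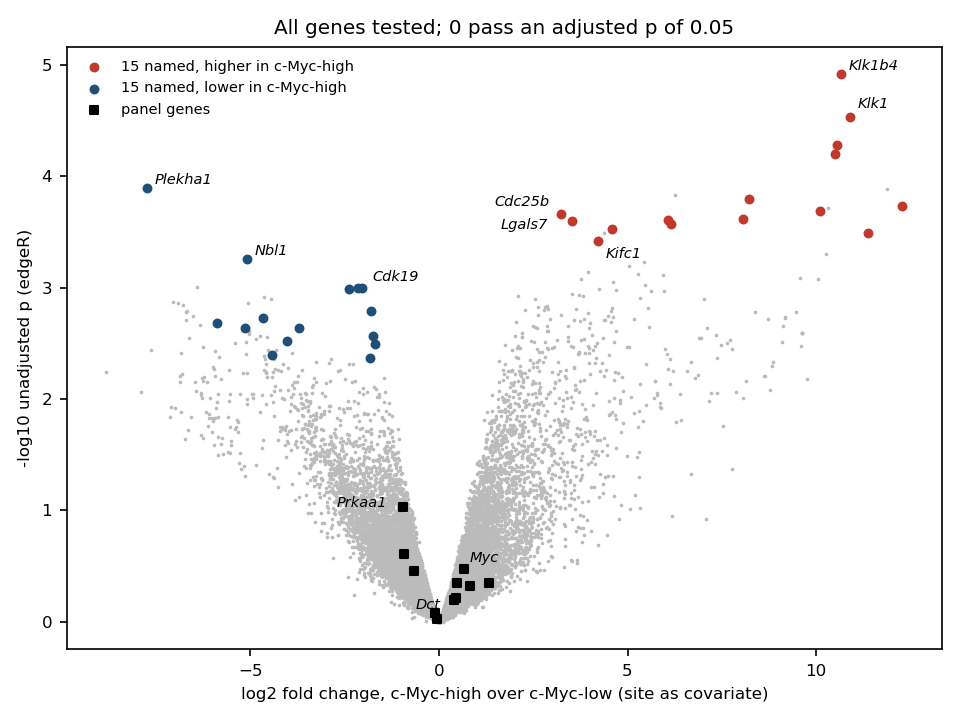
Log2 fold change between the classes (x axis) against -log10 of the unadjusted edgeR p (y axis) for all 16805 genes, with the 15 leading named genes of each direction and the panel genes marked. Klk1b4 and Klk1 lie at the top right at 10.65 and 10.89, Plekha1 at the far left of the marked genes at -7.74, and Myc near the centre at 0.48.

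A looser description counts genes whose libraries did not overlap. Within each site, all c-Myc-high libraries lay above all c-Myc-low ones for 153 genes (0.91%) and below for 550 (3.27%). Over all 10 libraries at once these were 65 (0.387%) and 271 (1.61%). The split depends on scaling, with 222 above and 443 below under RLE and 47 above and 1209 below in CPM without TMM factors. Over all 10 libraries these splits were 99 and 217, and 23 and 596. The surplus of genes with lower values goes with the lower number of genes detected in c-Myc-high libraries. Its part in the separation was not tested.

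Myc transcripts did not separate the classes. In primary cells Myc (chromosome 15, 61985391 to 61990374, GRCm38) had 997 and 104 CPM in the c-Myc-high and 162 and 318 in the c-Myc-low libraries. The metastatic values were 148, 267 and 234 CPM against 101, 230 and 317. Primary c-Myc-high replicate 1 stood above all other libraries, and primary c-Myc-high replicate 2 was lower than both primary c-Myc-low libraries. The log2 fold change was 0.48 (SE 0.62, edgeR adjusted p = 0.888), and it was -0.28 without primary c-Myc-high replicate 1. GFP status was the sorting criterion, and the transcript is a different measure. Of the 11 tested genes of the Myc and MAX network 7 had positive values, with a median of 0.42. Max, the obligate partner of c-Myc, was the 1 member with an unadjusted p under 0.05. It had 148 and 236 CPM in primary c-Myc-high against 73.9 and 97.7 in c-Myc-low cells. In metastatic cells the values were 220, 246 and 678 CPM against 208, 176 and 187, so the classes did not overlap in either site (1.07, SE 0.46, adjusted p = 0.538, and 0.45 without the Lars2-rich libraries). In CPM without TMM factors they overlapped.

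Lists of growth and biosynthesis genes had positive medians, without any member passing in edgeR. Positive values were found for 7978 of all 16805 genes (47.5%), and no test compared a list with them. Of 39 canonical Myc targets, 31 had positive values, 6 (15.4%) had an unadjusted p under 0.05 in the higher direction and 0 in the lower, and the median was 0.75. Their summed level was 4640 and 4400 CPM in primary c-Myc-high libraries and 1900 and 1770 in primary c-Myc-low ones. In metastatic cells it was 2100, 1620 and 3410 CPM against 1300, 1360 and 1370. The classes therefore did not overlap in either site, and among the 47 gene lists this was the 1 list with that property in both sites in the same direction. In CPM without TMM factors the metastatic libraries overlapped. Without the Lars2-rich libraries, where 5.06% of all genes had an unadjusted p under 0.05 in the higher direction, 33 of the 39 targets had positive values, 6 had an unadjusted p under 0.05 and the median was 0.51. Without the libraries rich in salivary gland transcripts these were 31, 5 and 0.61, against 3.6% of all genes.

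Npm1, which encodes the nucleolar chaperone nucleophosmin (chromosome 11, 33152287 to 33163206), led the Myc targets. It had 115 and 466 CPM in primary c-Myc-high against 25.4 and 15.6 in c-Myc-low libraries, and 25.8, 8.97 and 300 against 8.04, 14.4 and 10.1 in metastatic ones. Metastatic c-Myc-high replicate 2 lay within the range of the c-Myc-low libraries, and the 2 highest values were those of the Lars2-rich libraries. The fold change was 3.54 (SE 0.86, adjusted p = 0.365), and 1.39 without those 2 libraries. Eif4a1, a helicase of translation initiation, had 211 and 514 CPM against 109 and 99.1 in primary and 69.2, 85.2 and 353 against 62, 54.8 and 72.4 in metastatic cells (1.57, SE 0.54, adjusted p = 0.414), with 0.54 when the Lars2-rich libraries were left out. Ptma, the prothymosin alpha gene, and Rcc1, the exchange factor of the Ran GTPase, had fold changes of 3.42 and 3.18. Without the Lars2-rich libraries these were 0.51 and -0.26, so both rested on those libraries. Npm1, Ptma and the ribosomal protein genes have many processed copies in the genome, and how the authors' counting divided their reads is not stated.

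Nucleolar genes had a positive median, and their summed level overlapped in metastatic cells. Of 36 ribosome biogenesis genes 28 had positive values and 5 (13.9%) an unadjusted p under 0.05, all in the higher direction, with a median of 0.36. Nop16, a nucleolar protein of the large subunit pathway, had 132 and 64.4 CPM against 24.5 and 9.82 in primary cells. Metastatic c-Myc-high libraries had 32, 7.34 and 165 against 8.42, 7.72 and 5.33 (2.95, SE 0.77, adjusted p = 0.365). Metastatic c-Myc-high replicate 2 again lay among the c-Myc-low values, and the fold change was 1.59 without the libraries rich in salivary transcripts. Ddx56, a nucleolar helicase, and Nhp2, of box H/ACA ribonucleoproteins, had fold changes of 2.10 and 2.47. Nhp2 stood at 838 CPM in primary c-Myc-high replicate 1 and at 3.58 to 28 in the other 9 libraries. Rrn3, an initiation factor of RNA polymerase I, had 1.92, and -0.37 without the Lars2-rich libraries.

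Ribosomal proteins had a median above that of all genes. Of 49 cytosolic ribosomal protein genes 36 had positive values and 7 (14.3%) an unadjusted p under 0.05, all in the higher direction, with a median of 0.55. Without the Lars2-rich libraries 43 had positive values, 8 an unadjusted p under 0.05, and the median was 0.66. Rpsa, of the small subunit, did not overlap over all 10 libraries. It had 28.1, 85.8, 10.5, 20.6 and 6.14 CPM in the c-Myc-high and 1.91 to 6.07 in the c-Myc-low libraries (2.60, SE 0.77, adjusted p = 0.379). In CPM without TMM factors its classes overlapped. Rpl7, of the large subunit, had 237 and 146 CPM against 9.89 and 17 in primary and 14.5, 47.5 and 74.1 against 5.1, 9.39 and 29.4 in metastatic cells (2.49, SE 0.74). Rps9 and Rps14 had fold changes of 1.33 and 1.76, and of 1.34 and 0.90 without the Lars2-rich libraries. Metastatic c-Myc-high replicate 2 and metastatic c-Myc-low replicate 3, the libraries that correlated at 0.918, had the highest summed levels of this list among metastatic cells, 7050 and 4210 CPM against 1920 to 2980 in the other 4. Eef2, the elongation factor that moves the ribosome along the message, separated all 10 libraries under TMM scaling and within each site also without it. It had 1860, 1360, 736, 611 and 892 CPM in the 5 c-Myc-high libraries and 319 to 519 in the c-Myc-low ones (1.20, SE 0.43, adjusted p = 0.441). It was chosen after its values were seen.

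Oxidative phosphorylation genes of the nuclear genome had a median above that of all genes. Of 37 oxidative phosphorylation genes 30 had positive values, 8 (21.6%) had an unadjusted p under 0.05 in the higher direction and 0 in the lower, and the median was 0.87. It was 0.51 without the Lars2-rich libraries, with 25 positive and 7 under 0.05, and 0.60 without the libraries rich in salivary gland transcripts, with 27 and 3. The summed level of the list overlapped between the classes in both sites. Sdhb, the iron-sulphur subunit of succinate dehydrogenase, did not overlap between the classes over all 10 libraries, with 72.5, 42, 42.8, 46.5 and 76.2 CPM in c-Myc-high and 11.6 to 31.6 in c-Myc-low cells (1.69, SE 0.53, adjusted p = 0.379). In CPM without TMM factors the classes overlapped. Its fold change was 1.60 without the Lars2-rich libraries and 1.71 without those rich in salivary gland transcripts. Ndufa2 and Ndufa5, of complex I, had fold changes of 2.86 and 3.13, and of 1.06 and 1.51 without the Lars2-rich libraries. Cox6c, of complex IV, had 1.90, and 0.57 without them. Of 25 fatty acid oxidation and tricarboxylic acid cycle genes 11 had positive values, with a median of -0.04, near that of all genes. Mdh2, the mitochondrial malate dehydrogenase gene, led this list. It had 378 and 1120 CPM against 159 and 106 in primary and 333, 107 and 800 against 158, 102 and 93.4 in metastatic cells (2.09, SE 0.59, adjusted p = 0.365). Its value was 1.13 without the Lars2-rich libraries.

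**Figure D4:**
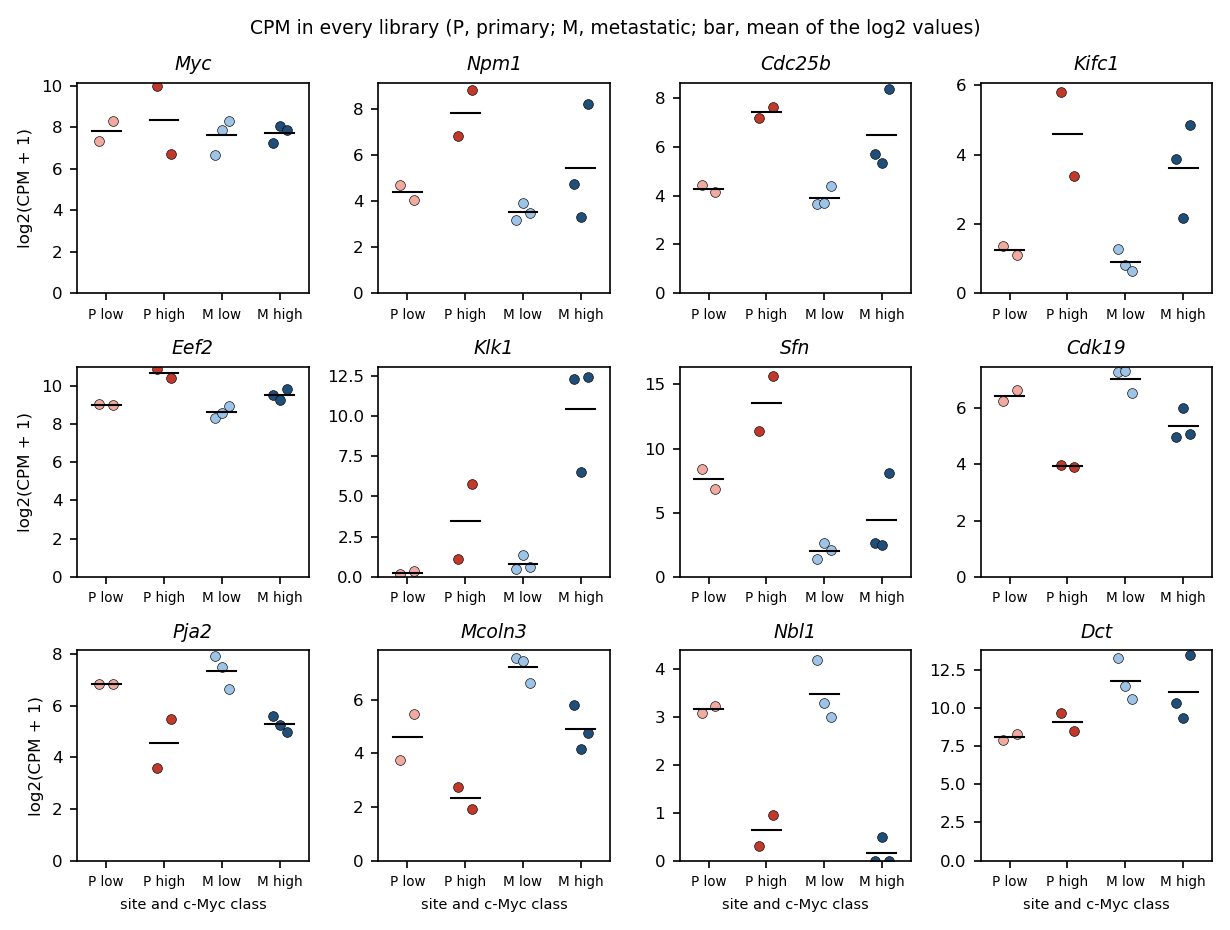
Log2(CPM + 1) of 12 genes in every library, grouped by site (P, primary; M, metastatic) and c-Myc class, with bars at the mean of each group. Myc and Dct overlap between the classes, Cdc25b, Kifc1 and Eef2 lie higher and Cdk19, Pja2 and Nbl1 lower in every c-Myc-high library.

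The cell cycle genes Cdc25b and Kifc1 separated all 10 libraries. Cdc25b encodes the phosphatase that activates CDK1 at entry into mitosis (chromosome 2, 131186949 to 131198497). It had 146 and 199 CPM in primary c-Myc-high against 20.7 and 16.5 in primary c-Myc-low cells. In lymph node metastases it had 51.1, 39.1 and 333 against 11.5, 12.1 and 20.2, so the 5 c-Myc-high libraries lay above the 5 others, also within each site in CPM without TMM factors. The fold change was 3.24 (SE 0.65, adjusted p = 0.281), with 3.21 in primary and 3.27 in metastatic cells. It stayed between 2.37 and 3.61 when each library was left out in turn, and was 2.13 without both Lars2-rich libraries. Kifc1, a minus-end kinesin of the mitotic spindle (chromosome 17, 33875659 to 33890661), had 55 and 9.33 CPM against 1.57 and 1.16 in primary cells. In metastatic cells it had 13.5, 3.46 and 28.1 against 1.4, 0.772 and 0.552 (4.21, SE 0.90, adjusted p = 0.321), again without overlap over the 10 libraries. DESeq2 called both (adjusted p = 9.35e-05 and 7.48e-06). Both were named for their low p, and neither is in the list of 28 G2/M and mitosis genes. Of that list 0 genes kept the classes apart in both sites, higher or lower. Ckap5 and Reep3, which also act in mitosis, separated all 10 libraries in the lower direction (-1.08 and -1.33). The 2 genes here thus do not stand for mitosis genes as a group.

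The promoters of Cdc25b and Kifc1 are shown because both genes act in mitosis and had higher values in all c-Myc-high libraries. They run over the 250 bases before the transcription start, from RefSeq on GRCm38.p6, 5′ to 3′ on the gene's strand. Capitals mark the CCAAT box read on the opposite strand (ATTGG), a motif of many cell cycle promoters, found 1 time in Cdc25b and 2 times in Kifc1. Of 32851 such windows of RefSeq promoters 33.8% hold CCAAT on either strand, and CACGTG was found in neither of the 2 genes. Cdc25b lies at chr2:131186698-131186947 and Kifc1 at chr17:33890634-33890883.
Cdc25b: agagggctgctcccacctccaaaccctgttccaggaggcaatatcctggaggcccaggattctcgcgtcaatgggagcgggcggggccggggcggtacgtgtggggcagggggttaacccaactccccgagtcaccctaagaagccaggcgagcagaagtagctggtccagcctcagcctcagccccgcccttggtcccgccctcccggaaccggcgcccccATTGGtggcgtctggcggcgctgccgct
Kifc1: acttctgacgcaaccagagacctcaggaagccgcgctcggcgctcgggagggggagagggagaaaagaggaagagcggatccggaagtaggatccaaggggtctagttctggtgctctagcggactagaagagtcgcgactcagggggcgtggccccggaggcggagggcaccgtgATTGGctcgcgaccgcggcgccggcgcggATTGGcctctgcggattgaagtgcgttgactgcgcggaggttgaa

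Among the 15 leading genes with higher values, 13 had a RefSeq promoter of 300 bases and 0 of them held CACGTG, and 0 of 12 did among the 15 leading genes with lower values. The share was 11.2% over the 11357 tested genes with such a promoter and 7.15% over all 32851 RefSeq promoters of that length. The absence of these letters from this window says nothing about binding of the factor.

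The wider cell cycle lists had positive medians. Of 28 G2/M and mitosis genes 23 had positive values and 3 (10.7%) an unadjusted p under 0.05, with a median of 0.53. Of 30 DNA replication and S phase genes 23 had positive values and 2 (6.67%) did, with a median of 0.32. No member of either list had an unadjusted p under 0.05 in the lower direction. The summed level of the G2/M list overlapped between the classes in both sites. Without the libraries rich in salivary gland transcripts 1 of its 28 genes (3.57%) had higher values at an unadjusted p under 0.05, against 3.6% of all genes. Without the Lars2-rich libraries 4 (14.3%) had, against 5.06% of all genes. The list medians were 0.61 and 0.68 in these settings. Ccnb2, a cyclin of mitosis, had 233 and 9.33 CPM against 12.4 and 21.7 in primary cells and 14, 18.7 and 541 against 16.2, 10.9 and 16.7 in metastatic ones (3.36, SE 1.05, adjusted p = 0.379), so 2 libraries carried its value, which was 1.64 without the Lars2-rich ones. Cdc20, an activator of the anaphase-promoting complex, and Plk1, a mitotic kinase, had fold changes of 2.13 and 2.15. That of Plk1 was 0.35 without the Lars2-rich libraries. Rfc5, a clamp loader subunit of DNA replication, had 154 and 91.4 CPM against 19.9 and 20.2 in primary cells. The metastatic values were 29.1, 19.4 and 55.2 against 14.8, 18.7 and 15.8, without overlap in either site under TMM scaling and with overlap without it (1.68, SE 0.56, adjusted p = 0.403). Cdkn1c, a CDK inhibitor, was at 0 to 0.408 CPM in c-Myc-high and 0 to 7.66 CPM in c-Myc-low cells, too low for a firm comparison.

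AMPK and antioxidant genes had no common direction. Of 19 tested genes of AMPK subunits, upstream kinases and linked regulators, sestrins among them, 9 had positive values. Their median was -0.06, equal to that of all genes. Prkaa1, a catalytic subunit (chromosome 15, 5143861 to 5181899), had 41.5 and 17.7 CPM in primary c-Myc-high against 65 and 68.8 in c-Myc-low cells. Metastatic c-Myc-high libraries had 16.1, 63.6 and 29.1 against 62, 75.5 and 52.8 (-0.95, SE 0.52, adjusted p = 0.675), with overlap through metastatic c-Myc-high replicate 2. Prkaa2, the other catalytic subunit, stood at 81.3 CPM in metastatic c-Myc-high replicate 1 and at 0.408 to 26.6 in the other libraries (0.83, SE 1.12, adjusted p = 0.892), and its value was -1.74 without the libraries rich in salivary gland transcripts. Sesn3, a sestrin that acts upstream of AMPK and TORC1, had 1.2 and 0 CPM against 5.79 and 6.07 in primary cells. In lymph node metastases it had 17, 12.4 and 5.11 against 48.4, 39.2 and 29.4, without overlap in either site (-2.15, SE 0.73, adjusted p = 0.406).

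Of 37 antioxidant and NRF2 genes 20 had positive values, 2 (5.41%) had an unadjusted p under 0.05, and the median was 0.07. Nfe2l2, which encodes NRF2, the regulator of this programme, had 480 and 106 CPM against 142 and 248 in primary and 100, 175 and 145 against 207, 203 and 213 in metastatic cells. The primary classes overlapped and the metastatic c-Myc-high libraries all lay below the c-Myc-low ones (-0.11, SE 0.51, adjusted p = 0.974). The test of a difference between the sites did not pass for Nfe2l2 (adjusted p = 0.842). Prdx5, a peroxiredoxin that removes peroxides, had 197 and 216 CPM against 145 and 79.7 in primary cells. In metastatic cells it had 59.5, 100 and 125 against 30.8, 20.1 and 32.4 (1.41, SE 0.47, adjusted p = 0.398). It did not overlap in either site under TMM scaling, and it overlapped in CPM without TMM factors.

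Most pigment genes had negative values, and their summed level overlapped between the classes. Of 16 melanin synthesis and melanosome genes 4 (25%) had positive values against 47.5% of all genes, 0 had an unadjusted p under 0.05 in the higher and 1 (6.25%) in the lower direction, and the median was -0.65 (0.07 in primary and -1.02 in metastatic cells). With limma-voom 1 of the 16 was positive, against 33.9% of all genes. There 4 (25%) had an unadjusted p under 0.05 in the lower direction, against 5.45% of all genes. Without the Lars2-rich libraries 3 were positive and 0 had an unadjusted p under 0.05, with a median of -0.66. Without those rich in salivary gland transcripts 3 were positive and 1 had an unadjusted p under 0.05, in the lower direction, with a median of -1.01. The sum was 4310 and 765 CPM against 1080 and 1680 in primary and 5520, 3470 and 17400 against 23500, 10200 and 8290 in metastatic cells, with overlap in both sites. Dct, the dopachrome tautomerase gene, had 815 and 353 CPM against 242 and 306 in primary cells and 1290, 643 and 11500 against 9850, 2750 and 1530 in metastatic ones (0.39, SE 0.82, adjusted p = 0.937). Tyr, which encodes tyrosinase, had a fold change of -0.66 (SE 0.69, adjusted p = 0.856) and ranged from 100 to 519 CPM in metastatic c-Myc-high and from 218 to 1270 in metastatic c-Myc-low libraries. Mitf had -0.91 (SE 0.75, adjusted p = 0.801). Sox10 had 294 and 13.1 CPM against 15.8 and 35 in primary cells, so the classes overlapped and 1 library carried the primary value of 2.61. In metastatic cells 289, 158 and 197 CPM lay below 481, 345 and 314 (-0.82), and the difference between sites did not pass (adjusted p = 0.724). Over both sites Sox10 had 0.46, and -0.79 without primary c-Myc-high replicate 1. Tspan10, a tetraspanin of the melanosome list, had -2.57 (SE 1.04, adjusted p = 0.506) at 0 to 13.2 CPM in c-Myc-high and 1.16 to 46.1 in c-Myc-low cells.

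The lowest p-values of all belonged to tissue kallikreins, secreted serine proteases of salivary gland. Of 17 tested salivary gland genes 16 had positive values, 8 (47.1%) had an unadjusted p under 0.05 in the higher direction and 0 in the lower, and the median was 6.19. Without the 2 libraries rich in salivary transcripts 15 were tested, 10 had positive values, 3 had an unadjusted p under 0.05 in the higher and 1 in the lower direction, and the median was 0.73. Some of the 17 thus passed the filter on low counts only through those c-Myc-high libraries, which favours positive values by construction. The list was also chosen with earlier results of these data known, so its counts and median are description only. The list median was 1.48 in primary and 7.62 in metastatic cells. Klk1 (chromosome 7, 44225360 to 44229618) had 1.2 and 53.2 CPM in primary c-Myc-high against 0.121 and 0.289 in c-Myc-low cells. The metastatic values were 5130, 92.5 and 5600 against 0.383, 1.54 and 0.552. Every c-Myc-high library was above every c-Myc-low library of its site, including metastatic replicate 2, which is not among those rich in salivary transcripts. The fold change was 10.89 (SE 1.77, adjusted p = 0.244), and 6.85 once the 2 libraries rich in salivary transcripts were left out. Klk1b5 separated all 10 libraries, at 0.72, 16.8, 2740, 41.2 and 1790 CPM against 0.121 to 0.643 (10.49, SE 1.84, adjusted p = 0.264, and 6.08 without those 2 libraries). The lowest c-Myc-high value, 0.72 CPM, is 3 counts.

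Klk1b4 had 0.24 and 4.66 CPM against 0 and 0 in primary and 1010, 6.73 and 444 against 0.128, 0.386 and 0.184 in metastatic cells (10.65, SE 1.59, adjusted p = 0.204). Klk1b21 and Klk1b11 had 0 counts in all c-Myc-low libraries. With a floor of 3 counts over that class they were at least 1460-fold and at least 788-fold higher in c-Myc-high cells. Most of these counts came from the 2 libraries rich in salivary transcripts. There Klk1b21 had 402 and 260 CPM, against 0, 1.87 and 5.3 in the other c-Myc-high libraries, and Klk1b11 had 210 and 143 against 0, 3.73 and 3.46. Without those 2 libraries the fitted log2 values were 6.98 and 6.81. Klk1b3 had 2 counts in the c-Myc-low class, a ratio of 2510 (95% interval 694 to 20700, exact, counting error only). It rested on metastatic c-Myc-high replicate 1 at 623 CPM, against 0 to 27.1 in the other 4 of the class, and the fitted log2 value was 6.11 without the 2 libraries rich in salivary transcripts. Crisp1, a cysteine-rich secretory protein, and Cst10, a cystatin, had fold changes of 8.21 and 10.10. Neither passed the filter on low counts without the 2 libraries rich in salivary transcripts. Amy1, Smr3a and Bpifa2, amylase and salivary secretory genes of that list, stood at 7300 to 98700 CPM in those 2 libraries and at 1.69 to 280 in the other 8. Of these, primary c-Myc-high replicate 2 held 55, 212 and 280 CPM. In bulk libraries more salivary cells and more of their RNA per cell cannot be told apart, and the part of either in these values was not tested.

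The kallikrein promoters are shown because these genes lie side by side on chromosome 7 and had high values in the same libraries. Likeness of promoters does not show how reads are divided between transcripts, and likeness of the transcripts was not measured. The 250 bases before the start of Klk1b4 (chr7:44207183-44207432) and Klk1b5 (chr7:44216224-44216473), from RefSeq on GRCm38.p6 in the 5′ to 3′ direction, were identical in 225 of 247 aligned columns (91.1%). GENCODE starts Klk1b5 upstream of RefSeq, at 44215945, so the stretch shown for it lies inside the GENCODE gene. Capitals mark their longest shared run of 38 bases.
Klk1b4: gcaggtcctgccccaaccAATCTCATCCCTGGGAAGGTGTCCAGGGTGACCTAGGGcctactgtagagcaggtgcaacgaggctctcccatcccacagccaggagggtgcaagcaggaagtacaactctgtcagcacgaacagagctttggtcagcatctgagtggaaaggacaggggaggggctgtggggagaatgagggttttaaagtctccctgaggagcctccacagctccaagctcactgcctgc
Klk1b5: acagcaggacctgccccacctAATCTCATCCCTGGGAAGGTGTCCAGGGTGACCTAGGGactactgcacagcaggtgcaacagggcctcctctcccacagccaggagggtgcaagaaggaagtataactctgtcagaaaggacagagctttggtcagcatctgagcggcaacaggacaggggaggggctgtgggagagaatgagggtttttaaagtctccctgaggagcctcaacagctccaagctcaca
The mouse kallikrein family is known for closely similar members, so the division of counts between them is uncertain.

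Epidermal genes had a positive median too. Of 22 keratinocyte genes 18 had positive values, 4 (18.2%) had an unadjusted p under 0.05 in the higher direction, and the median was 0.67. Without the libraries rich in salivary gland transcripts 14 were positive, 1 had an unadjusted p under 0.05, and the median was 0.21. The summed level was 68500 and 105000 CPM in primary c-Myc-high against 54300 and 33500 in primary c-Myc-low cells, and 59.5 to 1170 in metastatic libraries. In CPM without TMM factors the primary classes overlapped, at 56300 and 70000 against 65800 and 34900. With TMM factors the keratinocyte sum of every primary library lay above the sums of the 16 pigment genes there, 765 to 4310 CPM. Epidermal transcripts were thus abundant in primary libraries of both classes, and these libraries cannot be read as melanoma cells alone. Lgals7, the epithelial galectin-7 gene (chromosome 7, 28863853 to 28866284), had 1140 and 1080 CPM against 155 and 55.2 in primary cells. Metastatic c-Myc-high libraries had 5.38, 0.204 and 2.56 against 0.255, 0.129 and 0.184 (3.52, SE 0.71, adjusted p = 0.281), with overlap through replicate 2 at the level of a single count. Sfn, the 14-3-3 sigma gene of stratified epithelia, had 2680 and 51800 CPM against 347 and 115 in primary and 5.38, 4.69 and 268 against 1.66, 5.15 and 3.31 in metastatic cells (5.61, SE 1.35, adjusted p = 0.365). Its fold change was 1.83 without the Lars2-rich libraries, which held its highest values in each site. Krt14, the keratin of basal epidermis, had 13200 and 991 CPM against 3610 and 2360 in primary cells and 4.04 to 8.69 CPM in metastatic ones (0.66, SE 0.66, adjusted p = 0.849).

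Another set of genes with high fold changes was high in the same 2 libraries. Gphn, the gephyrin gene, had 425 and 1950 CPM against 47 and 35.8 in primary cells. In lymph node metastases it had 62.7, 61.3 and 1800 against 31.6, 29.1 and 28.5, so the classes did not overlap over the 10 libraries (4.59, SE 0.95, adjusted p = 0.287). Spag7, chosen after its values were seen, had 32.2 and 1540 CPM against 11.7 and 12.1 in primary and 24, 30.6 and 1060 against 11.5, 10.6 and 18.2 in metastatic cells. The highest value in each site was that of a Lars2-rich library, and its classes overlapped in CPM without TMM factors. Without those 2 libraries the fold changes were 1.96 for Gphn and 1.15 for Spag7. The clone-named genes AC146596.1 and AC113970.1 behaved alike, at 6.06 and 6.14 with all libraries and 2.54 and 2.50 without these. Atf5, a stress response factor, and Ccl2, a chemokine that attracts monocytes, had 4.69 and 3.99, and 0.48 and 0.97 without them. Adm, the adrenomedullin gene of the hypoxia list, and Ctgf, a matricellular growth factor, had 5.48 and 3.80, and -0.57 and -1.06 without them. Dusp6, a phosphatase induced by MAPK signalling, had 2.56, and 0.36 without them, and Tap2, of peptide loading for MHC class I, 2.67 and 0.25.

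Kdm6b, a histone H3 demethylase, had 646 and 686 CPM against 106 and 46.2 in primary cells. In metastatic cells it had 246, 174 and 482 against 101, 137 and 133 (2.01, SE 0.55, adjusted p = 0.365, and 1.68 without the Lars2-rich libraries). It was chosen after its values were seen, as were Rtn3 and Dnase1. Rtn3, a reticulon of the endoplasmic reticulum, had 231 to 659 CPM in c-Myc-high and 180 to 220 in c-Myc-low libraries (0.78, SE 0.43, adjusted p = 0.671), and its classes overlapped in CPM without TMM factors. Without the Lars2-rich libraries the fold change of Rtn3 was 0.30. Dnase1, a secreted nuclease, separated all libraries too, but at 11.2 to 17.3 CPM in 3 c-Myc-high libraries and 970 and 13600 in those rich in salivary gland transcripts, against 2.3 to 8.49. Its fold change was 1.29 without those 2. Rsc1a1 did not separate the classes. It had 19, 30.8, 59.7, 8.36 and 0 CPM in the 5 c-Myc-high libraries and 2 counts in all c-Myc-low ones, a ratio of 389 (95% interval 107 to 3220, counting error only). It lies within Ddi2 on the same strand, so the division of reads between both genes is uncertain.

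Cdk19, a kinase of the Mediator complex (chromosome 10, 40339564 to 40483818), had 14.9 and 14 CPM in primary c-Myc-high against 74.1 and 99.4 in c-Myc-low cells. The metastatic values were 30.1, 63 and 32.7 against 154, 156 and 91.6 (-2.03, SE 0.49, adjusted p = 0.365). All 5 c-Myc-high libraries lay below the 5 others, and with any library left out the value stayed between -2.22 and -1.88. Pja2, a ubiquitin ligase that degrades regulatory subunits of protein kinase A (chromosome 17, 64281005 to 64331916), had 11 and 43.8 CPM against 112 and 114 in primary cells. Metastatic c-Myc-high libraries had 47.1, 37.1 and 30.7 against 241, 181 and 99.3 (-2.13, SE 0.51, adjusted p = 0.365), again without overlap. Mcoln3, a cation channel of endosomes and lysosomes (chromosome 3, 146117450 to 146141806), had 5.76 and 2.8 CPM against 12.4 and 43.3 in primary and 54.6, 16.7 and 26.1 against 187, 172 and 98 in metastatic cells (-2.38, SE 0.57, adjusted p = 0.365). The classes were apart in both sites, also in CPM without TMM factors.

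Nbl1, a secreted antagonist of BMP ligands (chromosome 4, 139082284 to 139092993), was close to 0 in c-Myc-high libraries. It had 0.24 and 0.933 CPM against 7.48 and 8.38 in primary and 0, 0.408 and 0 against 17.1, 8.75 and 6.99 in metastatic cells, which is 4 counts over the c-Myc-high and 331 over the c-Myc-low class (-5.09, SE 1.14, adjusted p = 0.365). Plekha1, which encodes the phosphoinositide-binding protein TAPP1, had 2 counts over the 5 c-Myc-high and 1267 over the 5 c-Myc-low libraries, a ratio of 305 (95% interval 84.4 to 2530, counting error only). It did not separate the classes, since metastatic c-Myc-low replicate 3 stood at 0.184 CPM against 29.7 to 87 in the other 4 of that class. The fold change was -7.74 (SE 1.46, adjusted p = 0.281). Tnfaip8l3, a lipid transfer protein, had 46.4 and 27.4 CPM in primary c-Myc-low cells and 1 count over all c-Myc-high libraries (-5.89, SE 1.55, adjusted p = 0.365). In metastatic c-Myc-low cells it had 0.766 to 2.21 CPM, where 3 counts are 0.383 to 0.552 CPM.

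Among genes of signalling and membranes, Ugcg, which makes glucosylceramide, had 15.8 and 29.8 CPM against 140 and 45.1 in primary cells. In lymph node metastases it had 87.2, 105 and 105 against 332, 342 and 201 (-1.74, SE 0.48, adjusted p = 0.365). Arpp19, whose phosphorylated product inhibits the phosphatase PP2A in mitosis, had 98.9 and 127 CPM against 486 and 402 in primary cells and 138, 70.9 and 76.2 against 355, 327 and 117 in metastatic ones (-1.68, SE 0.47, adjusted p = 0.365). The metastatic classes overlapped for Arpp19 and not for Ugcg. Myo7a, an unconventional myosin expressed in pigment cells, had 15.9, 29.1 and 23.5 CPM against 147, 97.4 and 85.1 in metastatic cells and 2.8 to 9.29 in all primary libraries (-1.82, SE 0.53, adjusted p = 0.379). Nox4, an NADPH oxidase that makes hydrogen peroxide, had 1.08, 1.02 and 2.56 CPM against 21.6, 20.2 and 11.4 in metastatic cells (-3.70, SE 0.99, adjusted p = 0.365). In primary cells it had 0 and 0 against 1.21 and 0.289 CPM. Npnt, an extracellular matrix ligand of integrins, had a fold change of -1.81 without overlap in either site. Cacna2d1, a calcium channel subunit, had -5.14 at 4 against 471 counts per class. The clone-named genes AC154015.1 and AL669964.1, had -4.66 and -4.41.

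Collagen and matrix genes were lower as a sum in metastatic c-Myc-high cells, at 2200, 2130 and 1960 CPM against 5270, 3830 and 2790, without overlap also in CPM without TMM factors. In primary cells the sums were 3600 and 8870 CPM against 2530 and 4540, and overlapped. Of the 26 genes tested 14 had positive values, 0 had an unadjusted p under 0.05 in the higher and 2 (7.69%) in the lower direction, and the median was 0.15, with 1.85 in primary and -1.11 in metastatic cells. Without the Lars2-rich libraries 2 were positive, 7 (26.9%) had an unadjusted p under 0.05 in the lower direction against 5.91% of all genes, and the median was -1.43. Without the libraries rich in salivary transcripts 19 were positive, 0 had an unadjusted p under 0.05 and the median was 0.77, so the direction of this list depended on which libraries entered. Rgs5, a marker of pericytes, had 0.72 and 0 CPM against 1.33 and 25.1 in primary and 0, 6.52 and 10.7 against 119, 69 and 40.1 in metastatic cells (-4.03, SE 1.12, adjusted p = 0.365). The 10 tested pericyte and smooth muscle genes had a median of 0.01, with 1 member higher and 2 lower at an unadjusted p under 0.05. Itga1, a collagen-binding integrin subunit, and Thbs2, a matrix thrombospondin, had -1.88 and -1.57. In metastatic cells Thbs2 had 13.5, 13 and 13.8 CPM against 93.3, 82.7 and 43.8, while in primary cells it had 45.1 and 56 against 54.8 and 61.8. Msx2, a homeobox gene of hair follicle, had 0 counts in c-Myc-high and 79 in c-Myc-low libraries, at least 13.9-fold lower with a floor of 3 counts over the class. Of 8 hair follicle and sebaceous genes tested 1 had a positive value and 2 (25%) had an unadjusted p under 0.05 in the lower direction, with a median of -1.43. Mx2, an interferon-induced GTPase, had -2.88 at 0 to 4.89 CPM in c-Myc-high and 2.31 to 9.91 in c-Myc-low libraries, and 10 of the 32 interferon response genes tested had positive values. Prx, the periaxin gene of Schwann cells, had -3.33 at 0 to 4.76 CPM. Nr2f2, a nuclear receptor of lymphatic endothelium, had 2.81, with 266 CPM in metastatic c-Myc-high replicate 3 and 0 to 29.9 in the others. Slc36a1, a lysosomal amino acid transporter, had -1.78 without overlap over the 10 libraries.

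Of the most abundant protein-coding genes below the c-Myc-low libraries in all 5 c-Myc-high ones, picked after their values were seen, Ckap5, a microtubule polymerase, had 116, 149, 123, 142 and 76.7 CPM against 212 to 286 (-1.08, SE 0.40, adjusted p = 0.46). Reep3, which clears endoplasmic reticulum from mitotic chromosomes, had -1.33. Bnip2, a BCL2-interacting protein, had -1.25, and Tor1aip2, a cofactor of torsin at the endoplasmic reticulum, -0.97. Trip12, a ubiquitin ligase, had 183 to 257 CPM in c-Myc-high and 273 to 375 in c-Myc-low libraries (-0.53, SE 0.39, adjusted p = 0.77). These differences were small beside the -7.74 of Plekha1. Separation of all libraries was the rule by which these genes were picked, so it is not a result about them. Of all genes tested 271 (1.61%) met it in the lower direction.

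**Figure D5:**
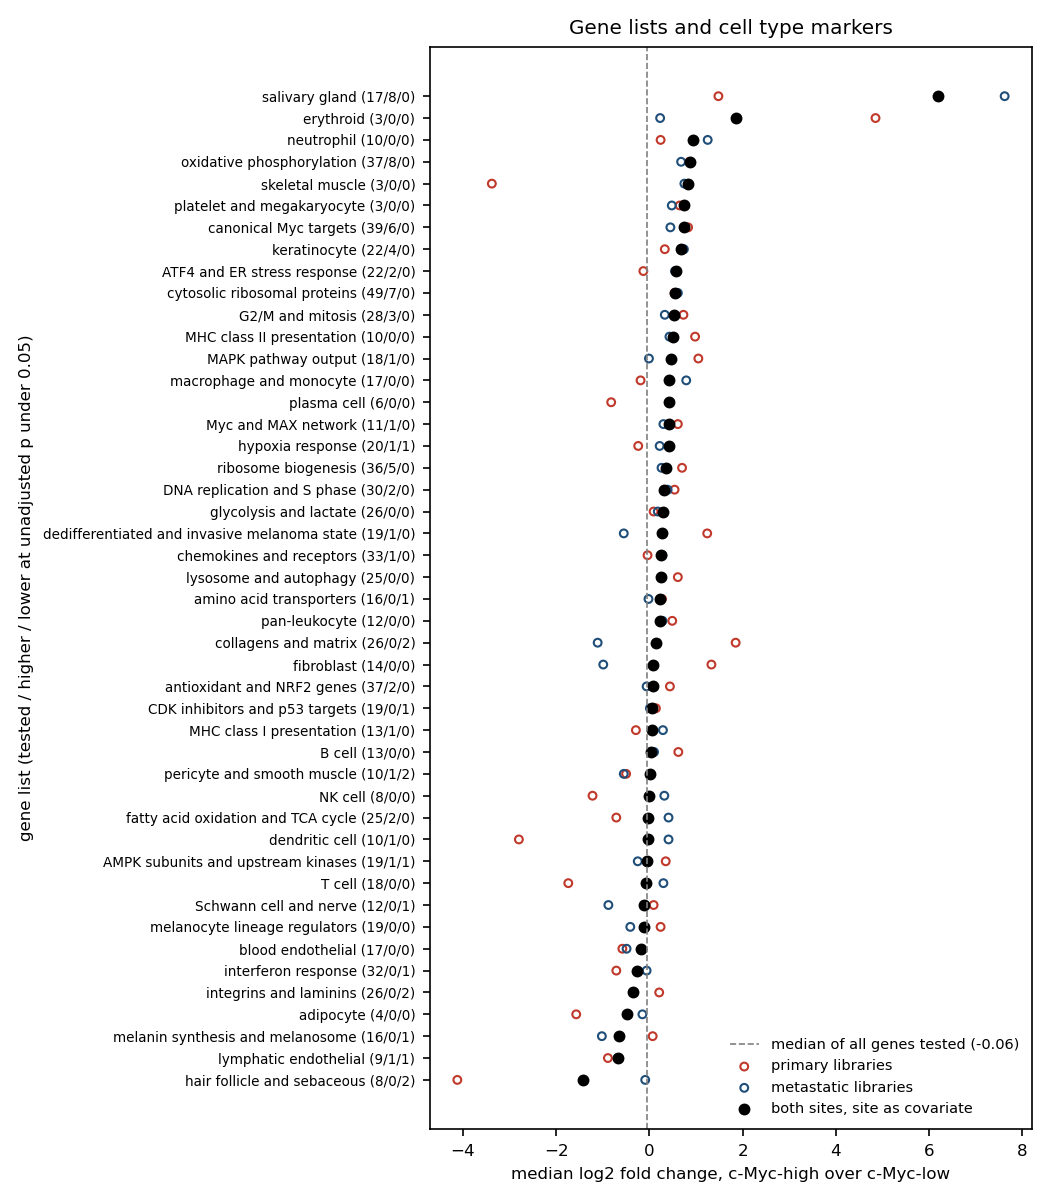
Median log2 fold change of each gene list with at least 3 tested members (x axis), for both sites (filled) and each site (open), with the numbers tested, higher and lower at an unadjusted p under 0.05 in brackets and the median of all genes as a dashed line. Salivary gland stands at 6.19, oxidative phosphorylation and canonical Myc targets at 0.87 and 0.75, and melanin synthesis at -0.65.

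Blood cell markers varied more between libraries than between classes. Of 12 pan-leukocyte genes 8 had positive values, and their summed level was 1870, 6220 and 450 CPM in metastatic c-Myc-high against 574, 2170 and 4280 in metastatic c-Myc-low cells. In primary libraries it was 45.7 to 210 CPM. Ptprc, which encodes CD45 of leukocytes, had 240, 620 and 55.7 CPM against 81.3, 485 and 586 in metastatic cells and 0.724 to 2.88 in primary ones (-0.05, SE 0.77, adjusted p = 0.992). Its presence shows leukocyte RNA in the metastatic libraries of both classes. All 10 tested neutrophil genes had positive values with a median of 0.94, and 0 had an unadjusted p under 0.05. Their summed level was 14100 CPM in metastatic c-Myc-high replicate 2, 4510 in metastatic c-Myc-low replicate 3 and 83.4 to 350 in the other 8. With a covariate for low Xist, which those 2 libraries share, 4 of the 10 were positive and the median was -0.49. Clec10a, a lectin of dendritic cells and macrophages, stood at 181 CPM in metastatic c-Myc-high replicate 3 and at 0 to 9.99 in the others. The fibroblast list had a median of 0.07, with 1.33 in primary and -0.99 in metastatic cells. Col1a1, of collagen I, had 0.72 and 2440 CPM against 29.9 and 76.9 in primary and 7.81, 249 and 19.4 against 183, 127 and 55.7 in metastatic cells (1.32, SE 1.71, adjusted p = 0.888). Without primary c-Myc-high replicate 2 its value was -1.35. The part of other cells in the differences between the classes was not tested.

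The difference between classes was also tested between sites. The interaction of class and site passed for 0 of 16805 genes (0.0%) in edgeR, with a lowest adjusted p of 0.577, and 1150 genes had an unadjusted p under 0.05. DESeq2 called 83. For 63 genes the classes separated without overlap upwards in primary and downwards in metastatic cells, and for 88 the reverse. Median fold changes of all genes were -0.12 in primary and 0.0 in metastatic cells. Dnase1 had 1.06 in primary and 9.80 in metastatic cells (interaction adjusted p = 0.724), and Klk1b5 had 5.30 and 11.91 (adjusted p = 0.724). Thbs2 had -0.21 and -2.45, also with an adjusted p of 0.724 for the difference. Cdc25b, Ckap5 and Pja2 had nearly the same value in both sites, with 3.21 and 3.27, -1.10 and -1.07, and -2.06 and -2.18. With 2 and 3 libraries per group these differences have wide errors, and a p that missed the threshold does not show that the sites behaved alike.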

How the data were processed

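RNA of sorted cells was amplified before library preparation, per the labels' protocols. The authors deposited 1 table of 92214 transcripts under 34162 gene names with estimated counts, not scaled between libraries and in 95.4% of cases above 0 not whole, and RPKM, scaled by the authors to length and depth. Per the submitters' processing notes, Bowtie2, limma and the mm10 build were used. Which program assigned reads, with what annotation and strand setting, is not given in the sources used here.

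Counts were summed per gene name, rounded and filtered by edgeR's default expression filter (16805 genes). The fit used edgeR 4.0.16 in R 4.3.3 with TMM factors, site and class, robust quasi-likelihood tests and Benjamini-Hochberg adjustment. Adjusted p-values of single genes are edgeR's unless DESeq2 1.42.0 is named, which set some to missing. SEs come from the F statistic. Library totals of 1602573 to 6844152 make 3 counts worth 0.362 to 2.8 CPM. Intervals and floors cover counting error only, since no molecular identifiers are named. Detected genes were compared by an exact permutation test within sites.

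Members and lists were chosen with earlier results of these data known. Named were a panel, the 15 genes per direction with the lowest p, a mean log2 CPM above 2 and both sites in that direction, and the leading member of each of 47 lists where its unadjusted p was under 0.05. Predicted genes were counted and not named. Named after their values were seen were the 5 most abundant protein-coding genes per direction without overlap, and further members of 5 growth lists. Gene positions are from GENCODE M21 (GRCm38, the assembly of mm10). Alternatives were other scalings, tests, filters, transcript choices and covariates, each site alone, each library left out, and, chosen after seeing the data, the libraries rich in salivary gland or Lars2 transcripts left out and a covariate for low Xist. The scripts were tested on simulated data.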

Additional observations from a re-analysis of the deposited data

How the results depend on the processing

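Calls were 0 in all settings but these, of which DESeq2 and limma-voom are tests other than edgeR's. DESeq2 gave 281 calls (236 higher, 45 lower), and 424 (258 and 166) without the libraries rich in salivary gland transcripts. Limma-voom with quality weights gave 1, higher, in a predicted gene. With no filter on low counts there were 9, with 8 higher (among them Klk1b4, Rsc1a1, Lgals7 and Cdc25b) and 1 lower (Plekha1). Leaving out each library gave 0 to 11 calls, 0 to 11 of them higher, the 11 without metastatic c-Myc-high replicate 2, Klk1b4 and Klk1 among them. The interaction gave 83 in DESeq2 and 1 with no filter. Replicate numbers did not pair libraries: deviations of same-numbered libraries correlated at 0.077 in primary and at 0.087, -0.193 and -0.305 in metastatic cells. There no c-Myc-high library correlated best with its own number: replicates 1, 2 and 3 correlated best with c-Myc-low replicates 2 (0.235), 3 (0.556) and 1 (0.359), a hint from the data and not the design. Xist stood at 17.7 CPM in c-Myc-high against 3460 in c-Myc-low primary replicate 2. In metastatic replicates 2 and 3 it stood at 7.95 against 3680 and at 1900 against 9.19. These same-numbered libraries differed in sex and so did not share an animal. With number and site as a replicate block all the same, 4 genes were called, all 4 higher, 3 of them the kallikreins Klk1b3, Klk1b21 and Klk1b9 and 1 predicted.

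Genes without overlap between classes numbered 1256 in CPM without TMM factors, against 703, and 826 to 1620 with a library left out, more than 1.5 times as many without primary c-Myc-high replicate 1 (1163), metastatic c-Myc-high replicates 1, 2 and 3 (1574, 1620 and 1072) or metastatic c-Myc-low replicate 3 (1350). Fewer libraries make separation easier by construction. Over the 11357 tested genes with a promoter CACGTG was in 11.2%, and in 9.44% over the 250 bases before the start. Over the 300 bases it was in 61 of 513 promoters (11.9%) of genes with higher values at an unadjusted p under 0.05. For genes with lower values it was in 43 of 401 (10.7%). Such promoters covered 11357 of the 16805 genes. The median of all genes shifted from -0.06 to 0.07 with RLE, 0.08 with DESeq2, -0.38 with limma-voom, -0.32 with RPKM and -0.43 with the block, and fold changes under these are to be read against it. With limma-voom the medians of the ribosome biogenesis, G2/M and keratinocyte lists were -0.05, -0.02 and -0.17, above that of all genes, and those of Myc targets, oxidative phosphorylation and ribosomal proteins were 0.37, 0.44 and 0.30.

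Of 2434 single-gene values under the alternatives 2278 kept direction and side of the threshold, 96 moved past it (45 with DESeq2), and 60, over 15 of 92 genes, turned sign; the cause was not tested. With limma-voom these were Nr2f2 (-0.04), Krt14 (-0.30), Col1a1 (-0.74), Prkaa2 (-0.34), Sox10 (-0.59) and Dct (-0.61). With RPKM they were Nr2f2 (-0.03), Rtn3 (-0.12), Krt14 (-0.32), Myc (-0.44), Col1a1 (-0.33), Sox10 (-0.52) and Dct (-0.84). Without the Lars2-rich libraries they were Adm (-0.57), Rcc1 (-0.26), Ctgf (-1.06), Rrn3 (-0.37), Col1a1 (-1.05), Dct (-0.69), Nfe2l2 (0.11) and Ptprc (0.39). Without those rich in salivary transcripts they were Prkaa2 (-1.74), Dct (-0.21), Nfe2l2 (0.18) and Ptprc (0.57), and with DESeq2 there -1.53, -0.03, 0.31 and 0.67. With the block they were Col1a1 (-1.39), Sox10 (-0.29), Dct (-0.01) and Ptprc (0.06), and with no site covariate Sox10 (-0.32) and Dct (-0.00). In primary libraries alone Mitf (0.28), Prkaa2 (-0.27) and Nfe2l2 (0.63) turned, and in metastatic ones Col1a1 (-0.42) and Sox10 (-0.73). With 4 group means Nfe2l2 (0.01) and Ptprc (0.10) did, Ptprc also with RLE (0.02) and DESeq2 (0.02), and Col1a1 with the covariate for low Xist (-2.55). With a library left out, Krt14 ran from -0.22 to 0.90, Myc from -0.28 to 0.75, Col1a1 from -1.35 to 2.22, Prkaa2 from -0.09 to 1.32, Sox10 from -0.79 to 0.94, Dct from -0.69 to 1.18, Nfe2l2 from -0.59 to 0.07 and Ptprc from -0.58 to 0.31. Depth limits low genes: in primary c-Myc-high replicate 2, 3 counts are 2.8 CPM.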
